A study of Mus musculus with 20 samples.

Results

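The 31 genes described here build cholesterol, sense it, move it within the cell or send it out. They were chosen by name and role, not by a threshold on a measured value, but with earlier results of these data known. All 31 were among the 13971 genes tested, of 42374 genes with a count. By role they comprise 8 enzymes of the mevalonate pathway, 11 enzymes that turn its product into squalene and then into sterols, 5 genes of sterol regulatory element binding proteins (SREBPs) and their control, 4 genes of transport and storage inside the cell, and Abca1, Abcg1 and Mylip, 3 targets of the liver X receptors (LXRs). RNA was sequenced from sorted endothelial cells of mouse skeletal muscle, the cells that line its vessels, gated as CD31+ and CD45-, the latter a marker of white blood cells. One muscle was oxidative (soleus) and the other glycolytic (extensor digitorum longus), and the mice were C57BL/6N. ECKO mice carried an endothelial cell specific Atf4-/- genotype, where Atf4 encodes a transcription factor of the stress response, and wild type (WT) mice were Cre-negative littermates. Both genotypes had received tamoxifen at 1 mg a day for 5 days from an age of 8 to 10 weeks, with at least 7 days of washout, so the drug is shared by all 4 groups. The labels name neither the Cre driver nor the animals behind a library, and p-values therefore measure the spread between libraries, which may be technical. Each group, glycolytic WT, oxidative WT, glycolytic ECKO and oxidative ECKO, held 5 libraries.

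Cells make cholesterol from acetyl-CoA through mevalonate, isoprenoid diphosphates, squalene and lanosterol. When the membrane of the endoplasmic reticulum runs short of sterol, Scap escorts SREBP2 to the Golgi apparatus, where proteases release the part that acts as a transcription factor, and the synthesis enzymes and lipoprotein uptake are switched on together. Insig proteins hold Scap back when sterol is plentiful. Oxysterols, which accumulate with cholesterol, activate LXRs, and these raise the exporters Abca1 and Abcg1 and the ubiquitin ligase Mylip, which limits lipoprotein uptake. In endothelium, cholesterol supply bears on membrane growth, caveolae and signalling of vessel wall receptors.

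Library totals ran from 8013223 to 21720127 counts. Atf4 stood at 243 to 281 CPM (counts scaled to a common library total, with TMM factors) in glycolytic WT and 535 to 589 CPM in oxidative WT, against 5.79 to 8.44 CPM in glycolytic and 7.97 to 8.7 CPM in oxidative ECKO. Y-linked RNA differed between the ECKO and the WT libraries. As a percentage of the mean WT level in the same muscle it was 0.627 to 1.62% in the glycolytic ECKO libraries, and 56.6, 57.5, 28.2, 0.817 and 0.961% in oxidative ECKO libraries 1 to 5, while Xist, the transcript of the inactive X chromosome, stood at 59.3 to 66.4 and at 18.0 to 81.5 CPM. All WT libraries carried Y-linked RNA and at most 0.274 CPM of Xist. Sex therefore cannot be told apart from genotype in glycolytic muscle. Nor can it in oxidative muscle, where no ECKO library was at the WT level of Y-linked RNA or Xist. In oxidative muscle values are also given with ECKO libraries 4 and 5 alone, or 1, 2 and 3 alone, where a call described below changes. Neither part separates sex from genotype. The sum of 10 endothelial markers, among them Pecam1 and Cdh5, was 9190 to 9560 CPM in glycolytic WT, 8250 to 8600 in oxidative WT, 7720 to 7820 in glycolytic ECKO and 8740 to 9040 in oxidative ECKO, and none of them was at 0. The sum of 13 immune markers was 309 to 404 CPM in oxidative WT, 40.6 to 91.8 in oxidative ECKO, 21.5 to 26.7 in glycolytic WT and 14.5 to 16.1 in glycolytic ECKO, and no marker of that list was at 0 throughout a group. For 13 muscle fibre markers the sums were 47.9 to 51.5 CPM in glycolytic WT, 92.9 to 195 in oxidative WT, 120 to 130 in glycolytic ECKO and 191 to 256 in oxidative ECKO. For 7 fibroblast markers they were 50.3 to 58.9, 138 to 326, 120 to 126 and 61.1 to 424 CPM in the same order, and for 8 pericyte and smooth muscle markers 828 to 838, 574 to 671, 1970 to 2030 and 759 to 1170 CPM. Of 7 adipocyte markers, 5 were below the filter on low counts, Lep was at 0 in every library, and Adipoq reached at most 1.02 CPM. The sum of the 7 was 4500 to 5890 CPM in glycolytic WT, 4340 to 5270 in oxidative WT, 3550 to 3730 in glycolytic ECKO and 4450 to 5030 in oxidative ECKO. The 2 tested were Lpl, called higher in ECKO than in WT in both muscles, and Fabp4, called lower in both. The part of these marker levels in the results below was not tested. In bulk samples, fewer cells of a type and less RNA per cell cannot be told apart.

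Promoters are shown because the synthesis genes are known targets of SREBPs, which act beside the factor NF-Y. RefSeq windows on GRCm38.p6, from 250 bases before to 50 after the annotated start, matched 25 of the 31 members (Fdps, Fdft1, Sqle, Stard4, Npc1 and Abcg1 had no entry). The annotated start lay 7524 bases from that of the transcript with most counts for Soat1, 588 for Dhcr7 and 453 for Pmvk. For the others it lay at most 214 bases away. The windows of Soat1, Dhcr7 and Pmvk may therefore not be the promoters in use. The NF-Y box CCAAT, searched on both strands, lay in 14 of 16 enzyme windows (87.5%), in 19 of 25 member windows (76.0%) and in 37.4% of all 32851 windows. Within the 100 bases just before the start it lay in 14 of 16 enzyme windows and in 18.9% of all windows, and Acat2 and Pmvk were the enzymes without a box anywhere in the window. The sterol regulatory element CACNCCAC, also on both strands, lay in 3 of 25 member windows (12.0%), those of Acat2, Hmgcs1 and Insig1, and in 6.24% of all windows. The LXR element, a repeat of AGGTCA with 4 bases between the copies, lay in 0 of the 25 and in 5 of all windows (0.0152%). No motif is part of another. A match is a description of letters and not a measured binding site. The stretches below end at or shortly before the start. They are written 5′ to 3′ on the gene's strand, with matches in capitals, where ATTGG is the box read on the other strand.
Hmgcs1 (chr13:119690101-119690350, plus strand): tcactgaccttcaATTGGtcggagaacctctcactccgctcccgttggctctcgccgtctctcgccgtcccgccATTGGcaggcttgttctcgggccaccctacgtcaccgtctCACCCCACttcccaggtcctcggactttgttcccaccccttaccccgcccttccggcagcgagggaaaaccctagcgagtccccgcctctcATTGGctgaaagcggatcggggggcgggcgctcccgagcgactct
Mvk (chr5:114444069-114444268, plus strand): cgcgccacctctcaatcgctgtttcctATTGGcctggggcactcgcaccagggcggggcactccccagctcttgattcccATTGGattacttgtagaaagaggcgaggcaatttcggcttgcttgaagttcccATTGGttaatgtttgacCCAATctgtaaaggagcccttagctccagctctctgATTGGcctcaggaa
Mvd (chr8:122443423-122443522, minus strand): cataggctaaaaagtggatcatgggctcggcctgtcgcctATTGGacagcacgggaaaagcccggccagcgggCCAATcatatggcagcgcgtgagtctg
Lss (chr10:76531505-76531587, plus strand): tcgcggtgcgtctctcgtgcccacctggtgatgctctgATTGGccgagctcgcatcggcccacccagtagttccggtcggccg
Sc5d (chr9:42264301-42264400, minus strand): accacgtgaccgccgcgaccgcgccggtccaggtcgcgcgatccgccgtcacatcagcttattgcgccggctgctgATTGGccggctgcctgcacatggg
Mylip (chr13:45389542-45389741, plus strand): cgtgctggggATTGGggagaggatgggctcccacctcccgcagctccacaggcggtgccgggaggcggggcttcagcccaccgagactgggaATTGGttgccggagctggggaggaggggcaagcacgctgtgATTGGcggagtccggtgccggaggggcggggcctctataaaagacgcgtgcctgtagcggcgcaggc
The Hmgcs1 stretch holds 3 boxes and 1 sterol regulatory element (CACCCCAC), and that of Mvk 5 boxes. Mvd has 2 boxes, Lss and Sc5d have 1 each close to the start, and Mylip, an LXR target, has 3.

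Compared per transcript length, in TPM (transcript abundance scaled to a common total), the most abundant member over all libraries was Npc2 (mean 58.5 TPM), which binds cholesterol in the lysosome, followed by the sterol isomerase Ebp (45.8), Mylip (43.8) and farnesyl diphosphate synthase Fdps (39.5). Lss (2.52) and Tm7sf2 (1.92) were the least abundant, and Tm7sf2 fell to 7 counts in 1 library. Values below are CPM, which compare 1 gene between libraries and not genes with each other.

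**Figure D1:**
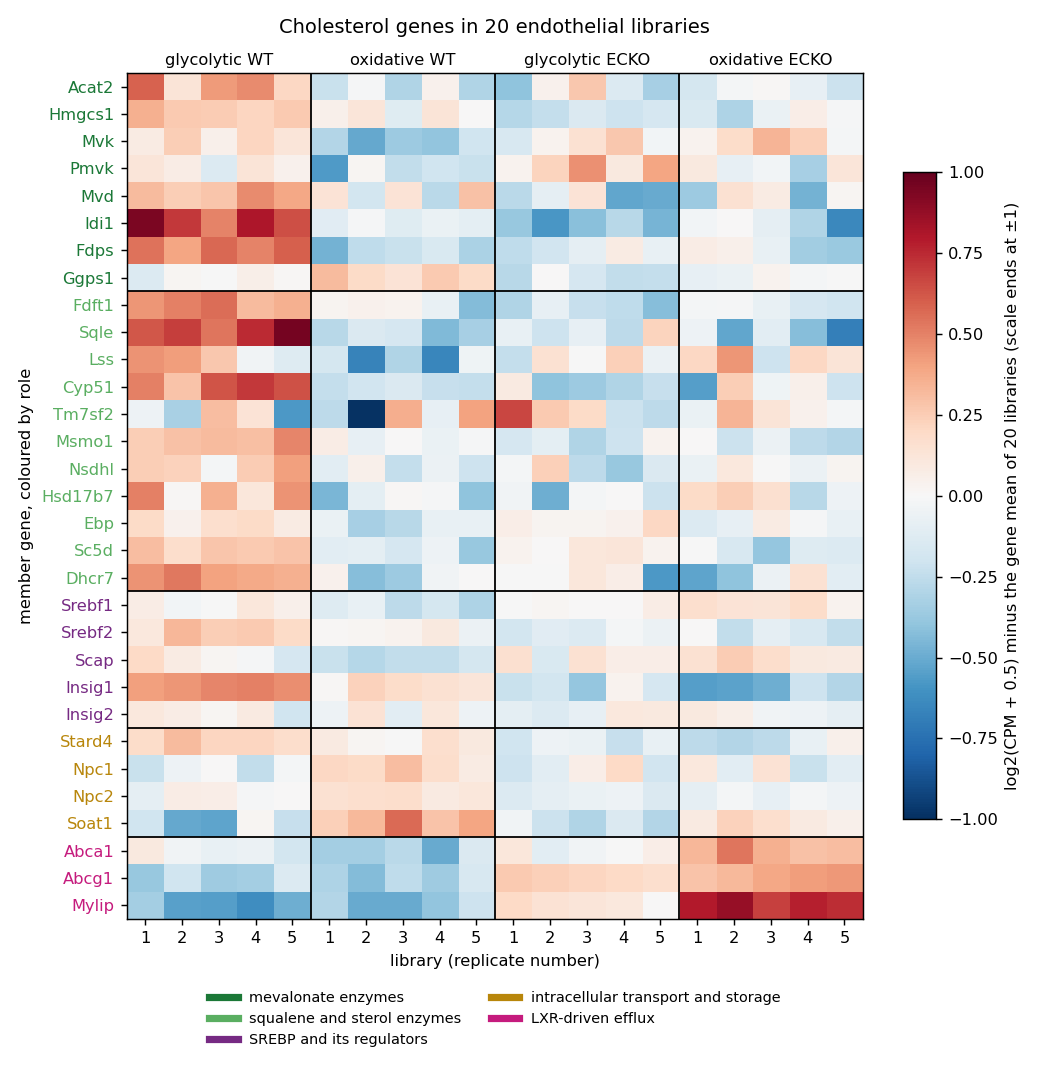
Level of each of the 31 members (rows, coloured by role) in each of the 20 libraries (columns), as log2(CPM + 0.5) minus the gene's mean over all libraries, with the colour scale ending at ±1. The enzyme rows are darkest red in glycolytic WT, where 15 of 19 enzymes had their highest group mean, and the Mylip row is darkest red in oxidative ECKO.

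Among the mevalonate enzymes, Idi1, which isomerises isopentenyl diphosphate (ENSMUSG00000058258.14, chromosome 13, 8885501 to 8892451, plus strand, GRCm38 as for all coordinates of genes), moved furthest. Idi1 stood at 38.3, 32.4, 28, 34.9 and 31 CPM in glycolytic WT and at 18.1, 19.5, 18, 18.8 and 18.3 CPM in oxidative WT. Idi1 in ECKO stood at 15, 13, 14.6, 16.1 and 14.1 CPM in glycolytic and at 19.3, 19.7, 18.4, 15.9 and 12.4 CPM in oxidative endothelium. All 5 glycolytic WT libraries lay above every other library. Unless another tool is named, tests are edgeR's quasi-likelihood test with Benjamini-Hochberg adjustment over all tested genes, values are log2 fold changes ± SE, and a gene with an adjusted p below 0.05 is called. Idi1 was 1.77-fold lower in oxidative than in glycolytic WT, -0.83 ± 0.10 (adjusted p = 3.3e-07), and 2.25-fold lower in glycolytic ECKO than in glycolytic WT, -1.17 ± 0.11 (adjusted p = 2.6e-09). In oxidative muscle the difference between genotypes did not pass, at -0.13 ± 0.11 (adjusted p = 0.39), but Idi1 fell with ECKO libraries 4 and 5 alone, at -0.41 (adjusted p = 0.012), against 0.05 (adjusted p = 0.74) with libraries 1, 2 and 3 alone.

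Hmgcs1, the synthase that makes HMG-CoA at the entry of the pathway (ENSMUSG00000093930.2, chromosome 13, 119690379 to 119708260, plus strand), moved less. Hmgcs1 stood at 61.5, 57.7, 57.3, 55.7 and 57.7 CPM in glycolytic WT and at 49.7, 52.2, 44, 52.5 and 48.1 CPM in oxidative WT. Hmgcs1 in ECKO stood at 39.4, 40.6, 43.4, 41.6 and 42.6 CPM in glycolytic and at 43.2, 38.6, 45.7, 50.2 and 47.5 CPM in oxidative endothelium. Every glycolytic WT library lay above every library of the other groups, and the 2 genotypes did not overlap in glycolytic muscle. The fall in glycolytic ECKO was -0.48 ± 0.062 (adjusted p = 1.2e-06), and that in oxidative WT -0.23 ± 0.061 (adjusted p = 0.0039). Mvk, the kinase that phosphorylates mevalonate (ENSMUSG00000041939.14, chromosome 5, 114444269 to 114460591, plus strand), had another pattern. Mvk stood at 17, 19.1, 16.6, 18.7 and 17.5 CPM in glycolytic WT and at 13, 11.1, 12.4, 12.1 and 13.9 CPM in oxidative WT. Mvk in ECKO stood at 14.3, 16.5, 17.9, 19.5 and 15.7 CPM in glycolytic and at 16.5, 18.3, 20.5, 19 and 15.8 CPM in oxidative endothelium. Oxidative WT was the low group, with its highest library at 13.9 CPM against a lowest of 14.3 elsewhere. Mvk was lower in oxidative than in glycolytic WT, -0.51 ± 0.094 (adjusted p = 0.00013), rose in oxidative ECKO, 0.52 ± 0.094 (adjusted p = 9.9e-05), and was at -0.08 ± 0.093 (adjusted p = 0.59) in glycolytic ECKO.

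Of the other mevalonate enzymes, Fdps, whose reads may be shared with pseudogene copies, went from 47.9 CPM ± 2.64 (SD, n = 5, as for all group means) in glycolytic WT to 27.3 CPM ± 2.26 in oxidative WT, -0.81 ± 0.085 (adjusted p = 2.5e-08). It stood at 30.9 CPM ± 2.84 in glycolytic ECKO, -0.63 ± 0.086 (adjusted p = 2.7e-06). Acat2, the cytosolic thiolase, was lower in both of these comparisons (-0.54 and -0.46), though a near-identical copy, Acat3, makes its counts uncertain. Mvd, the decarboxylase, fell in glycolytic ECKO at -0.60 ± 0.15 (adjusted p = 0.0032) and was at -0.32 ± 0.14 (adjusted p = 0.095) between the WT muscles, and the gene Gm20388 covers it on the opposite strand. Ggps1, which makes geranylgeranyl diphosphate for protein prenylation and not for sterol, was the only mevalonate member called higher in oxidative WT, 0.23 ± 0.055 (adjusted p = 0.0022), and it fell in oxidative ECKO, -0.25 ± 0.056 (adjusted p = 0.001), and in glycolytic ECKO, -0.18 ± 0.057 (adjusted p = 0.018). The phosphomevalonate kinase Pmvk was lower in oxidative WT, -0.29 ± 0.11 (adjusted p = 0.036), a call lost without any 1 of glycolytic WT libraries 1, 2, 4 and 5 and oxidative WT libraries 1, 3, 4 and 5 (adjusted p up to 0.12). That of Ggps1 in glycolytic ECKO was lost with the effective length offset or without glycolytic ECKO library 1 or 4 (adjusted p up to 0.054).

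Of the enzymes from squalene onwards, squalene epoxidase Sqle (ENSMUSG00000022351.14, chromosome 15, 59315077 to 59331192, plus strand), a slow step of the pathway, differed most between the WT muscles. Sqle stood at 15.7, 16.5, 14.8, 17.2 and 20.0 CPM in glycolytic WT and at 8.23, 9.06, 8.87, 7.29 and 7.89 CPM in oxidative WT. Sqle in ECKO stood at 9.5, 8.64, 9.45, 8.32 and 11.8 CPM in glycolytic and at 9.68, 6.86, 9.33, 7.37 and 6.08 CPM in oxidative endothelium. Glycolytic WT again stood above all other libraries, and the other 3 groups overlapped. Sqle was 2.05-fold lower in oxidative than in glycolytic WT, -1.04 ± 0.13 (adjusted p = 2.9e-07), and 1.78-fold lower in glycolytic ECKO, -0.83 ± 0.13 (adjusted p = 1.2e-05). The genotypes in oxidative muscle were at -0.06 ± 0.13 (adjusted p = 0.76).

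Cyp51, which demethylates lanosterol (ENSMUSG00000001467.5, chromosome 5, 4081145 to 4104746, minus strand), was also highest in glycolytic WT. Cyp51 stood at 19.8, 16.9, 21.6, 22.9 and 21.7 CPM in glycolytic WT and at 11.6, 12, 12.4, 11.7 and 11.6 CPM in oxidative WT. Cyp51 in ECKO stood at 14.7, 10.3, 10.6, 11.1 and 11.7 CPM in glycolytic and at 9.26, 16.5, 13.4, 14.3 and 11.9 CPM in oxidative endothelium. Its glycolytic WT libraries all lay above the 15 others. It was lower in oxidative WT, -0.79 ± 0.12 (adjusted p = 8.2e-06), and in glycolytic ECKO, -0.82 ± 0.12 (adjusted p = 8.8e-06). Lanosterol synthase Lss (ENSMUSG00000033105.12, chromosome 10, 76531588 to 76557138, plus strand) had its lowest mean in oxidative WT, as Mvk did. Lss stood at 8.8, 8.58, 7.7, 6.16 and 5.73 CPM in glycolytic WT and at 5.54, 3.79, 5.03, 3.83 and 6.11 CPM in oxidative WT. Lss in ECKO stood at 5.28, 7.09, 6.3, 7.55 and 6.06 CPM in glycolytic and at 7.35, 8.75, 5.39, 7.37 and 6.95 CPM in oxidative endothelium. The groups overlapped widely for Lss, which had few counts. It was lower in oxidative than in glycolytic WT, -0.59 ± 0.16 (adjusted p = 0.0063), higher in oxidative ECKO than in oxidative WT, 0.54 ± 0.17 (adjusted p = 0.013), and at -0.18 ± 0.16 (adjusted p = 0.44) in glycolytic ECKO.

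Sc5d, the desaturase that acts late in sterol synthesis (ENSMUSG00000032018.14, chromosome 9, 42251595 to 42264256, minus strand), was the only enzyme called between the 2 ECKO groups. Sc5d stood at 46.1, 42.1, 45.1, 44.7 and 45.5 CPM in glycolytic WT and at 34.5, 34.7, 33.1, 35.8 and 28.5 CPM in oxidative WT. Sc5d in ECKO stood at 38.1, 37.3, 40.2, 40.4 and 38.2 CPM in glycolytic and at 37, 33.3, 28.3, 33.9 and 33.8 CPM in oxidative endothelium. The oxidative groups were both low, and no oxidative WT or ECKO library reached the glycolytic ECKO range. The difference was -0.42 ± 0.066 (adjusted p = 1.5e-05) between the WT muscles and -0.23 ± 0.068 (adjusted p = 0.021) between the ECKO muscles. The second of these was not called with ECKO libraries 4 and 5 alone (adjusted p = 0.1) or 1, 2 and 3 alone (adjusted p = 0.053). It was also lost without glycolytic ECKO library 3 or 4 or oxidative ECKO library 3, without the low-count filter and with the effective length offset (adjusted p up to 0.1 over all alternatives). In glycolytic ECKO Sc5d was at -0.20 ± 0.067 (adjusted p = 0.026), a call lost with the length offset or without glycolytic WT library 1 or 5 or glycolytic ECKO library 1, 2 or 5 (adjusted p up to 0.066).

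Squalene synthase Fdft1 fell at -0.52 ± 0.083 (adjusted p = 1.8e-05) in oxidative WT and -0.70 ± 0.085 (adjusted p = 4.3e-07) in glycolytic ECKO, but its gene span shares 774 bases with Ctsb, an abundant lysosomal protease on the opposite strand. Stretches of Cyp51, Srebf1, Ggps1 and Npc1 lie under genes on the opposite strand too. Dhcr7, which completes the route to cholesterol, was at -0.59 ± 0.13 (adjusted p = 0.0008) and -0.49 ± 0.13 (adjusted p = 0.0052). The methyl oxidase Msmo1 was at -0.36 ± 0.068 and -0.49 ± 0.07, and the ketosteroid reductase Hsd17b7 at -0.50 ± 0.14 and -0.45 ± 0.14, all of these called. The fall of Hsd17b7 in glycolytic ECKO was lost without glycolytic WT library 1 or 5 or glycolytic ECKO library 2 (adjusted p up to 0.064), and that of Nsdhl without glycolytic ECKO library 4 (0.053). Nsdhl and Ebp lie on the X chromosome. Nsdhl, a sterol dehydrogenase, was at -0.36 ± 0.10 and -0.35 ± 0.10, both called, and Ebp at -0.29 ± 0.06 (adjusted p = 0.00038) and -0.06 ± 0.06 (adjusted p = 0.48). Tm7sf2, a sterol reductase that shares 532 bases with Vps51 on the same strand, passed no test, with values from -0.10 to 0.30 in the 4 pairwise comparisons.

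**Figure D2:**
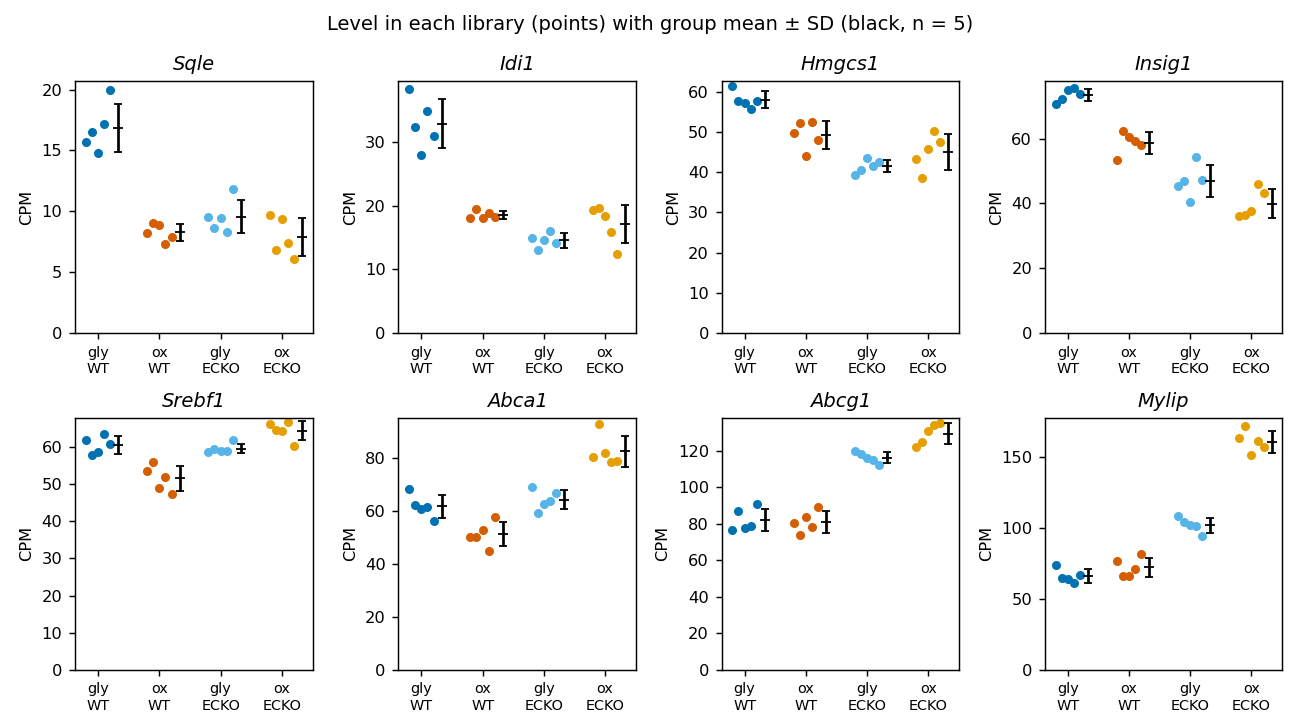
CPM of 8 members in each library (coloured points, 5 a group) with the group mean ± SD (black), on linear axes that start at 0. Sqle, Idi1 and Insig1 are highest in glycolytic WT, and Mylip rises from 66.0 CPM in glycolytic WT to 161 CPM in oxidative ECKO.

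The regulators moved in different directions. Insig1 (ENSMUSG00000045294.11, chromosome 5, 28071363 to 28078662, plus strand), which retains Scap and is itself an SREBP target, was the 1 member called in all 4 pairwise comparisons. Insig1 stood at 70.8, 72.3, 74.9, 75.8 and 73.7 CPM in glycolytic WT and at 53.5, 62.5, 60.6, 59.3 and 58 CPM in oxidative WT. Insig1 in ECKO stood at 45.4, 46.8, 40.6, 54.4 and 47.2 CPM in glycolytic and at 36.1, 36.5, 37.7, 46 and 43.3 CPM in oxidative endothelium. Every WT library lay at 53.5 CPM or above, and the highest ECKO library, at 54.4 CPM, was above only 1 of them. Insig1 fell from glycolytic to oxidative WT, -0.32 ± 0.068 (adjusted p = 0.00057), in glycolytic ECKO, -0.65 ± 0.07 (adjusted p = 7.2e-08), and in oxidative ECKO, -0.55 ± 0.071 (adjusted p = 7.1e-07). Between the ECKO muscles it was at -0.23 ± 0.073 (adjusted p = 0.027), and at -0.08 (adjusted p = 0.61) with oxidative libraries 4 and 5 alone. That call was also lost with only the groups compared or without glycolytic ECKO library 4 or oxidative ECKO library 1, 2 or 3. Insig2, its paralog, passed no test, with group means of 48.3 CPM ± 4.04, 48 CPM ± 3.71, 46.9 CPM ± 3.78 and 47.5 CPM ± 2.59 in glycolytic WT, oxidative WT, glycolytic ECKO and oxidative ECKO.

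Srebf2 encodes SREBP2 (ENSMUSG00000022463.8, chromosome 15, 82147181 to 82205379, plus strand). Srebf2 stood at 49.8, 58.5, 55.1, 55.6 and 53.1 CPM in glycolytic WT and at 46.8, 47, 47.6, 49.5 and 44.5 CPM in oxidative WT. Srebf2 in ECKO stood at 40.8, 42.9, 42.2, 45.6 and 44.5 CPM in glycolytic and at 46.4, 39.1, 43.5, 41.5 and 39 CPM in oxidative endothelium. Both ECKO groups overlapped only the lower part of oxidative WT. Srebf2 was lower in oxidative than in glycolytic WT, -0.21 ± 0.056 (adjusted p = 0.0049), fell in glycolytic ECKO, -0.33 ± 0.058 (adjusted p = 6.5e-05), and fell in oxidative ECKO, -0.17 ± 0.058 (adjusted p = 0.027). The last of these was not called with oxidative ECKO libraries 1, 2 and 3 alone (-0.11, adjusted p = 0.21), without oxidative WT library 4 or oxidative ECKO library 2 or 5, without the low-count filter or with only the groups compared (adjusted p up to 0.21). Srebf1, the gene of SREBP1, which favours fatty acid genes (ENSMUSG00000020538.15, chromosome 11, 60199089 to 60222581, minus strand), differed from Srebf2. Srebf1 stood at 62, 57.8, 58.6, 63.5 and 60.9 CPM in glycolytic WT and at 53.6, 55.9, 49, 51.9 and 47.5 CPM in oxidative WT. Srebf1 in ECKO stood at 58.6, 59.5, 59, 59.1 and 61.9 CPM in glycolytic and at 66.2, 64.7, 64.3, 66.7 and 60.3 CPM in oxidative endothelium. Oxidative WT was the lowest group and did not overlap the rest. Srebf1 was lower there than in glycolytic WT, -0.23 ± 0.049 (adjusted p = 0.00054), rose in oxidative ECKO, 0.32 ± 0.049 (adjusted p = 1e-05), and was at -0.02 ± 0.049 (adjusted p = 0.78) in glycolytic ECKO.

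Scap, the escort (ENSMUSG00000032485.14, chromosome 9, 110333288 to 110384950, plus strand), had its lowest mean in oxidative WT and its highest in oxidative ECKO, as Srebf1 did. Scap stood at 54.4, 50.1, 47.8, 46.9 and 42 CPM in glycolytic WT and at 40.5, 38.7, 39.8, 39.8 and 41.8 CPM in oxidative WT. Scap in ECKO stood at 52.9, 42.4, 52.5, 49.4 and 49.6 CPM in glycolytic and at 52.5, 56.3, 53.4, 50.5 and 50.4 CPM in oxidative endothelium. All oxidative WT libraries lay below all others. It was at -0.26 ± 0.064 (adjusted p = 0.0023) between the WT muscles, 0.39 ± 0.064 (adjusted p = 3.1e-05) in oxidative ECKO and 0.04 ± 0.064 (adjusted p = 0.72) in glycolytic ECKO.

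In the transport and storage group, Soat1, which esterifies cholesterol for storage (ENSMUSG00000026600.12, chromosome 1, 156424525 to 156474331, minus strand), was the member furthest up in oxidative WT. Soat1 stood at 12.9, 10.3, 10.2, 15.1 and 12.6 CPM in glycolytic WT and at 17.7, 18.8, 22.3, 18.3 and 19.7 CPM in oxidative WT. Soat1 in ECKO stood at 14.5, 12.8, 12, 13.4 and 12.1 CPM in glycolytic and at 15.9, 17.6, 16.8, 15.9 and 15.5 CPM in oxidative endothelium. No glycolytic WT library reached the oxidative WT range. Soat1 was higher in oxidative than in glycolytic WT, 0.66 ± 0.099 (adjusted p = 7.6e-06), and in oxidative than in glycolytic ECKO, 0.33 ± 0.10 (adjusted p = 0.025), the second not called with ECKO libraries 4 and 5 alone (0.27, adjusted p = 0.21) or without glycolytic ECKO library 2, 3 or 5 or oxidative ECKO library 2 or 3. Immune marker RNA was higher in the oxidative group in both of these comparisons, and its part was not tested. Stard4, a carrier of sterol between membranes (ENSMUSG00000024378.9), stood lower in ECKO. Stard4 stood at 69.1, 76.1, 70.8, 70.7 and 68.8 CPM in glycolytic WT and at 64.8, 61.6, 60.8, 68.4 and 65.2 CPM in oxidative WT. Stard4 in ECKO stood at 52.9, 58.8, 58.1, 51.7 and 57.7 CPM in glycolytic and at 50.8, 49.6, 50.7, 57.8 and 63 CPM in oxidative endothelium. It fell in glycolytic ECKO, -0.35 ± 0.062 (adjusted p = 8.9e-05), and in oxidative ECKO, -0.23 ± 0.062 (adjusted p = 0.0044), where libraries 4 and 5 alone gave -0.08 (adjusted p = 0.4). Between the WT muscles Stard4 did not pass, -0.15 ± 0.061 (adjusted p = 0.064), but was called lower in oxidative WT in the fit without oxidative ECKO libraries 1, 2 and 3 (adjusted p = 0.022) or without 4 and 5 (adjusted p = 0.014). Npc1 and Npc2, which carry cholesterol out of the lysosome, were higher in oxidative WT at 0.30 ± 0.086 (adjusted p = 0.0078) and 0.13 ± 0.04 (adjusted p = 0.015), the latter not called without the low-count filter (adjusted p = 0.12). In oxidative ECKO they were lower at -0.22 ± 0.086 (adjusted p = 0.049) and -0.19 ± 0.04 (adjusted p = 0.00051), and the call on Npc1 was lost in 14 of 29 alternatives, among them without any 1 of oxidative WT libraries 1 to 4 or oxidative ECKO libraries 2, 4 and 5, and with ECKO libraries 1, 2 and 3 alone (-0.12, adjusted p = 0.36, the highest of these). Npc1 and Npc2 moved in these comparisons in the same direction as the immune markers.

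The LXR targets were higher in ECKO, with Abca1 called in oxidative muscle and not in glycolytic muscle. Mylip (ENSMUSG00000038175.10, chromosome 13, 45389742 to 45412022, plus strand) had the largest rise of any member. Mylip stood at 74.1, 64.4, 64, 60.8 and 66.7 CPM in glycolytic WT and at 76.7, 66.2, 66.2, 71.2 and 81.4 CPM in oxidative WT. Mylip in ECKO stood at 108, 104, 102, 101 and 93.9 CPM in glycolytic and at 163, 172, 151, 161 and 157 CPM in oxidative endothelium. The 2 WT groups overlapped, every glycolytic ECKO library lay above both, and every oxidative ECKO library lay above those. Mylip was 2.22-fold higher in oxidative ECKO than in oxidative WT, 1.15 ± 0.059 (adjusted p = 1.6e-14), and 1.54-fold higher in glycolytic ECKO than in glycolytic WT, 0.63 ± 0.06 (adjusted p = 6.7e-09). Between the ECKO muscles it was 1.58-fold higher in the oxidative one, 0.66 ± 0.058 (adjusted p = 5.9e-09), and between the WT muscles at 0.14 ± 0.06 (adjusted p = 0.084).

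Abcg1, which hands cholesterol to high-density lipoprotein (ENSMUSG00000024030.7, chromosome 17, 31057675 to 31117988, plus strand), also separated the genotypes. Abcg1 stood at 76.7, 86.8, 77.8, 78.7 and 90.6 CPM in glycolytic WT and at 80.7, 73.7, 83.6, 78 and 89.3 CPM in oxidative WT. Abcg1 in ECKO stood at 120, 118, 116, 115 and 112 CPM in glycolytic and at 122, 125, 131, 134 and 135 CPM in oxidative endothelium. No ECKO library fell into the WT range. The rise was 0.67 ± 0.053 (adjusted p = 1.3e-10) in oxidative and 0.50 ± 0.053 (adjusted p = 5.7e-08) in glycolytic muscle, and the ECKO muscles differed by 0.16 ± 0.053 (adjusted p = 0.037), or 0.14 (adjusted p = 0.1) with oxidative libraries 1, 2 and 3 alone. The difference between the ECKO muscles was also lost without glycolytic ECKO library 2, 4 or 5 or oxidative ECKO library 3, 4 or 5, without the low-count filter and with the effective length offset. Abca1, which loads cholesterol onto lipid-poor apolipoprotein (ENSMUSG00000015243.4, chromosome 4, 53030787 to 53159895, minus strand), had another pattern than Abcg1. Abca1 stood at 68.5, 62.4, 60.9, 61.6 and 56.4 CPM in glycolytic WT and at 50.4, 50.4, 52.9, 45 and 57.8 CPM in oxidative WT. Abca1 in ECKO stood at 69.2, 59.5, 62.6, 64 and 66.9 CPM in glycolytic and at 80.5, 93, 82, 78.6 and 79.2 CPM in oxidative endothelium. Every oxidative ECKO library lay above all 15 others, while the 2 glycolytic groups overlapped. Abca1 rose in oxidative ECKO, 0.68 ± 0.064 (adjusted p = 3.3e-09), was at 0.06 ± 0.064 (adjusted p = 0.55) in glycolytic ECKO, was lower in oxidative than in glycolytic WT, -0.27 ± 0.064 (adjusted p = 0.0018), and higher in oxidative than in glycolytic ECKO, 0.36 ± 0.064 (adjusted p = 0.0002).

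**Figure D3:**
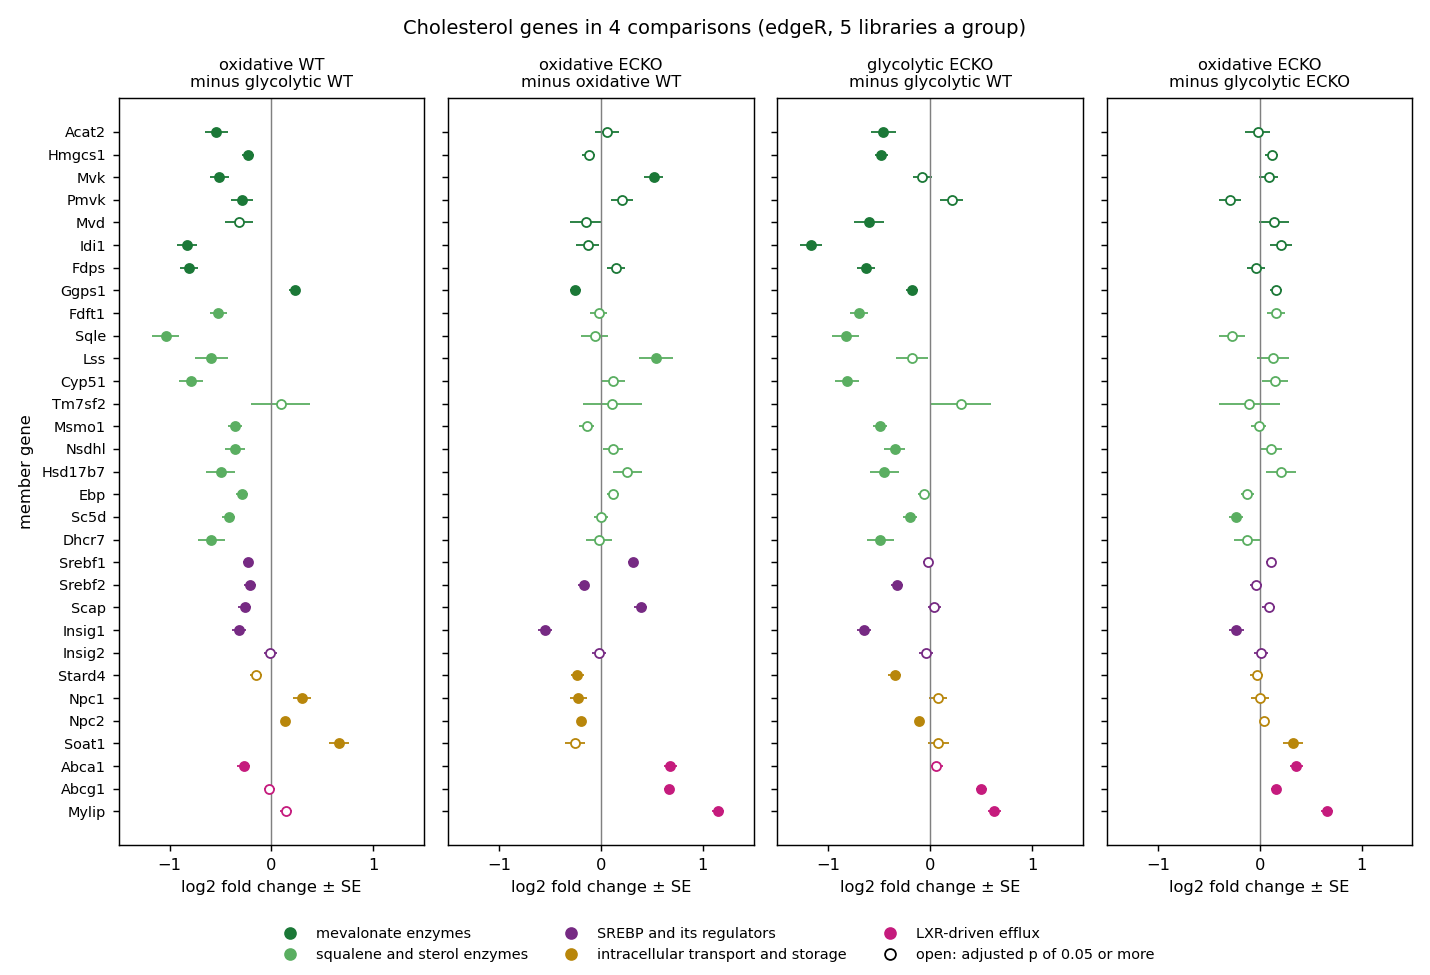
Log2 fold change ± SE of each member (rows, coloured by role) in the 4 pairwise comparisons, from 5 libraries a group, with filled points for an adjusted p below 0.05 and a vertical line at no change. Most enzymes lie left of the line in the oxidative WT and glycolytic ECKO panels, which share glycolytic WT, and the 3 LXR targets lie right of it in both ECKO against WT panels, Abca1 close to it in the glycolytic one.

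Oxidative was compared with glycolytic WT to ask how endothelium of the 2 muscles differs at rest. Cholesterol synthesis RNA was lower in the oxidative muscle: 16 of the 19 enzymes were lower, Ggps1 was higher and Mvd and Tm7sf2 did not pass, with a median of -0.50. Of all 31 members 21 were lower and 4 higher, where 15.9% and 16.4% of all tested genes were called lower and higher (32.4% in either direction), and the median of all tested genes was 0.00. By role, 6 of 8 mevalonate enzymes, 10 of 11 squalene and sterol enzymes and 4 of 5 SREBP genes were lower, and Soat1, Npc1 and Npc2 of the transport genes were higher. Abca1 was the 1 LXR target called. Of the 10 endothelial markers 5 were lower and 1 higher, with a median of -0.14, and the sum of the immune markers was higher in oxidative WT; their part in these counts was not tested. Libraries of both groups carried Y-linked RNA throughout, so sex did not separate them.

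Glycolytic ECKO was compared with glycolytic WT to ask how the genotypes differ in glycolytic muscle. Sex cannot be told apart from genotype in this comparison. The synthesis enzymes were lower and 2 of the LXR targets higher: 14 of 19 enzymes fell and the other 5 (Mvk, Pmvk, Lss, Tm7sf2 and Ebp) did not pass, with a median of -0.46. No enzyme was called higher by edgeR, DESeq2 or limma-voom, and 0 had an unadjusted p below 0.05 in that direction. Over all members 18 fell and 2 rose, against 15.1% of tested genes called lower and 13.9% called higher (29% in either direction) and a median of 0.00. Of the 10 endothelial markers 7 fell here, with a median of -0.32, and the sum of the pericyte and smooth muscle markers went from 828 to 838 CPM in WT to 1970 to 2030 CPM in ECKO. Of the 8 genes in that sum Tagln and Acta2 were called higher, Pdgfrb lower and 5 did not pass, with a median of 0.13. The part of either marker list in the counts of members was not tested. The falls comprised 6 of 8 mevalonate enzymes, 8 of 11 squalene and sterol enzymes, Srebf2, Insig1, Stard4 and Npc2, and the rises Abcg1 and Mylip. The call on Npc2, at -0.11 ± 0.04 (adjusted p = 0.046), was lost in 15 of 29 alternatives, 11 of them with 1 library left out. The comparison with the WT muscles above has glycolytic WT in common with this one, so the 2 sets of enzyme values are not independent of each other.

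In oxidative muscle, ECKO against WT gave a different picture. Here too sex cannot be told apart from genotype. The enzymes stayed near their WT level, with 2 rises (Mvk and Lss), 1 fall (Ggps1), 16 that did not pass and a median of 0.06, and all 3 LXR targets rose. Of the 31 members 7 rose and 6 fell, against 14.6% and 17.4% of tested genes (32% in either direction) and a median of 0.02 over these. Of the 10 endothelial markers 3 rose and 2 fell, with a median of -0.02, and the immune sum was lower in ECKO. Srebf1 and Scap were the other 2 that rose, and the falls were Ggps1, Srebf2, Insig1, Stard4, Npc1 and Npc2. With ECKO libraries 4 and 5 alone 2 enzymes rose and 3 fell, Idi1 and Msmo1 being added, and with libraries 1, 2 and 3 alone 3 rose and 2 fell, Fdps and Hmgcs1 being added. All 3 LXR targets were called in both.

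Between the ECKO muscles 19.4% of the members were called, near the 18.4% of all tested genes. Mylip, Abca1, Abcg1 and Soat1 were higher in the oxidative muscle and Insig1 and Sc5d lower, or 4 and 2 of 31 members, against 8.31% and 10.1% of tested genes (18.4% in either direction). The median was 0.09 over the members and 0.00 over all tested genes. These counts rest on single libraries: 2 were higher without glycolytic ECKO library 5 or oxidative ECKO library 3. The number lower was 0 without glycolytic ECKO library 4 or oxidative ECKO library 3, and 1 without glycolytic ECKO library 3 or oxidative ECKO library 1 or 2. With oxidative ECKO libraries 4 and 5 alone, or 1, 2 and 3 alone, 4 were higher and 1 lower, but not the same genes: Hmgcs1 took the place of Soat1 and Sqle that of the lower genes in the first, and Idi1 that of Abcg1 in the second, where Insig1 was lower. Mylip and Abca1 were called in every one of the 29 alternatives, with adjusted p up to 4.5e-07 and 0.0094. All 4 Y-linked genes were called higher in oxidative than in glycolytic ECKO, so muscle and sex cannot be told apart with all libraries.

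The interaction tests whether the change from WT to ECKO differs between the muscles, taken as oxidative minus glycolytic. All 4 Y-linked genes were called in it, with a median of 4.15, so muscle and sex cannot be told apart with all libraries. For the enzymes the change was more positive in oxidative muscle, where they stayed level, than in glycolytic muscle, where they fell: 12 of 19 were called, all in this direction, with a median of 0.47. The interaction also holds glycolytic WT, so these calls are not independent of the 2 comparisons above in which the enzymes were lower. Idi1 was at 1.04 ± 0.15 (adjusted p = 7.8e-06), Cyp51 at 0.94 ± 0.17 (adjusted p = 0.00019), Fdps at 0.77 ± 0.12 (adjusted p = 3e-05) and Sqle at 0.77 ± 0.18 (adjusted p = 0.0028). Of the 10 endothelial markers 5 were also called more positive, with a median of 0.22, and their part was not tested. Over all members 16 were called more positive, against 10.1% of tested genes, and the median was 0.35, against 0.01 over all genes. No member was called more negative by edgeR, DESeq2 or limma-voom (12.5% of tested genes were, and 22.6% in either direction), and Npc1 and Soat1 were the 2 members with an unadjusted p below 0.05 in that direction. With oxidative ECKO libraries 4 and 5 alone, 8 of 19 enzymes were called, with the same median of 0.47, and Npc1 was called more negative; with libraries 1, 2 and 3 alone 12 were. Leaving out glycolytic WT library 4 made 1 member, Soat1, more negative, and leaving out oxidative ECKO library 3 made it Npc1. Acat2, Sqle, Msmo1, Nsdhl and Hsd17b7 were the enzymes not called with libraries 4 and 5 alone, Sqle at 0.53 (adjusted p = 0.053), and Dhcr7 was added at 0.66 (adjusted p = 0.013).

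**Figure D4:**
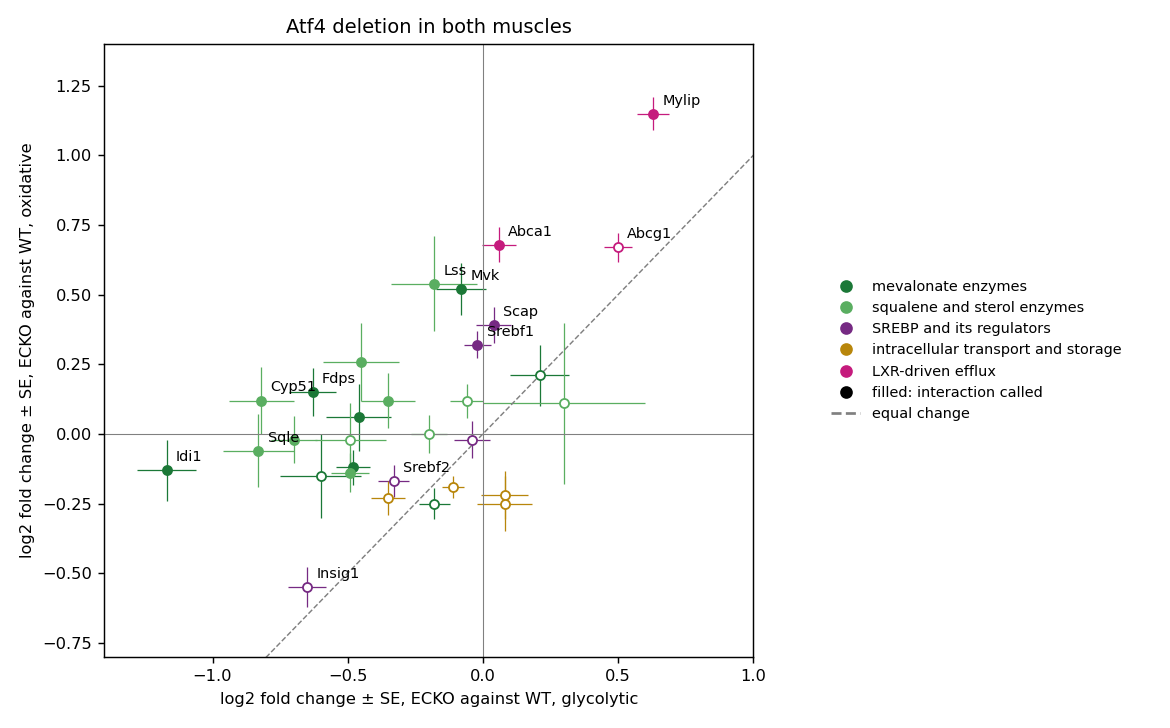
Log2 fold change ± SE of ECKO against WT in glycolytic muscle (horizontal) and in oxidative muscle (vertical) for the 31 members, coloured by role, with filled points where the interaction was called and a dashed line of equal change. Filled points lie above the dashed line, with Idi1, whose interaction was 1.04, furthest from it.

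Among the other members Mylip, at 0.52 ± 0.084 (adjusted p = 3.5e-05), and Abca1, at 0.63 ± 0.091 (adjusted p = 8.5e-06), rose more in oxidative muscle, while Abcg1 was at 0.18 ± 0.075 (adjusted p = 0.092), or 0.23 and called with oxidative ECKO libraries 4 and 5 alone (adjusted p = 0.046). Srebf1 was at 0.34 ± 0.07 (adjusted p = 0.00057) and Scap at 0.35 ± 0.091 (adjusted p = 0.0055). The interaction of Insig1 did not pass, at 0.09 ± 0.1 (adjusted p = 0.57), with falls of 0.55 and 0.65 on the log2 scale in oxidative and glycolytic ECKO. Srebf2 did not pass either, at 0.17 ± 0.081 (adjusted p = 0.15), but was called with oxidative ECKO libraries 1, 2 and 3 alone, at 0.24 (adjusted p = 0.047). The transport genes passed no interaction test with all libraries. With oxidative ECKO libraries 4 and 5 alone Stard4 was called at 0.27 (adjusted p = 0.022) and Npc1 at -0.43 (adjusted p = 0.023).

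Synthesis and efflux were set beside each other as the mean log2(CPM + 0.5) of the 19 enzymes and of Abca1, Abcg1 and Mylip, as a description with no test. The enzyme mean was 4.49 ± 0.04 (SD, n = 5) in glycolytic WT, 4.04 ± 0.03 in oxidative WT, 4.09 ± 0.04 in glycolytic ECKO and 4.11 ± 0.06 in oxidative ECKO. Glycolytic WT stood alone, its lowest library at 4.44 and the highest of any other group at 4.18. The efflux mean was 6.13 ± 0.05, 6.07 ± 0.10, 6.52 ± 0.05 and 6.91 ± 0.04 in the same order. Here the ECKO groups separated from both WT groups and from each other, with ranges of 6.48 to 6.60 and 6.88 to 6.98 against at most 6.24 in WT. The gap between efflux and synthesis widened from 1.64 ± 0.06 in glycolytic WT to 2.03 ± 0.09 in oxidative WT, 2.43 ± 0.06 in glycolytic ECKO and 2.80 ± 0.05 in oxidative ECKO, with no overlap between groups. Between the WT groups the efflux means overlapped and the enzyme means did not. The efflux mean includes Mylip, which limits uptake and is not an exporter. Per length, the summed TPM of the enzymes was 359 ± 12.2, 235 ± 8.47, 307 ± 10.4 and 288 ± 11.9, and the efflux sum was 55.3 ± 2.34, 48.9 ± 4.81, 85.6 ± 3.3 and 113 ± 3.6 TPM. On the TPM scale the median tested gene shifted between groups: the median log2 ratio of group means over the 13971 tested genes was -0.21 for oxidative against glycolytic WT, 0.26 for oxidative ECKO against oxidative WT and 0.13 for glycolytic ECKO against glycolytic WT, where on the CPM scale it was 0.00, 0.02 and 0.01. TPM sums are therefore given as levels and not compared between groups.

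**Figure D5:**
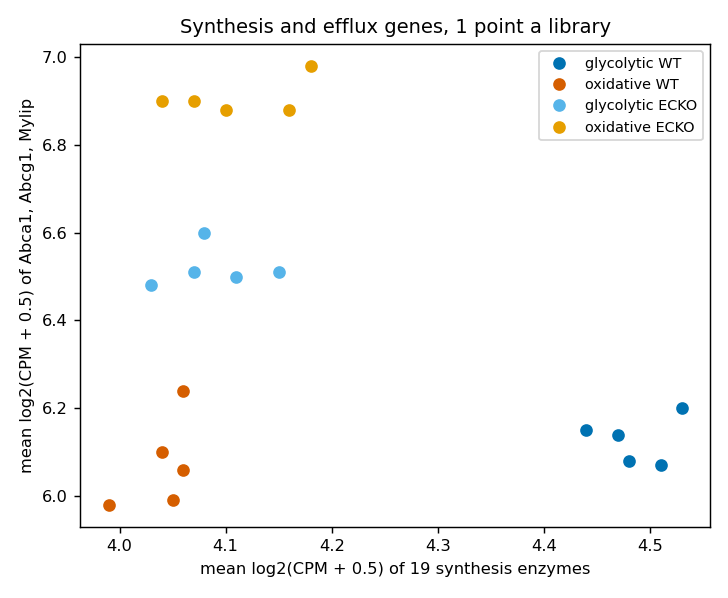
Mean log2(CPM + 0.5) of the 19 synthesis enzymes (horizontal) and of Abca1, Abcg1 and Mylip (vertical), 1 point a library, coloured by group. Glycolytic WT stands alone on the right at 4.44 to 4.53, and the ECKO groups stand above WT, at 6.48 to 6.60 and 6.88 to 6.98.

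Genes around the members were counted from further lists. Of 12 genes that process SREBP or work beside it, 4 were lower in oxidative than in glycolytic WT, 2 rose in oxidative ECKO, and 1 rose and 3 fell in glycolytic ECKO. These are 33.3%, 16.7% and 33.3% of the list, near or below the 32.4%, 32% and 29% of all tested genes. Tmem97, an SREBP target, was at -0.49 ± 0.12 (adjusted p = 0.003) between the WT muscles and -0.61 ± 0.13 (adjusted p = 0.0006) in glycolytic ECKO. Rnf145, a ubiquitin ligase, rose in oxidative ECKO, 0.45 ± 0.066 (adjusted p = 6.6e-06). Neither the NF-Y subunits nor Mbtps1 and Mbtps2, the proteases that cut SREBP, were called in any of these 3 comparisons. Of 13 fatty acid synthesis genes, 6 were lower and 1 higher in oxidative WT. In glycolytic ECKO 6 fell, and in oxidative ECKO 6 rose and 3 fell. These are 53.8%, 46.2% and 69.2% of the list, beside 32.4%, 29% and 32% of all tested genes. With oxidative ECKO libraries 4 and 5 alone 5 rose and 2 fell in oxidative ECKO, and Fasn, at 0.43 (adjusted p = 0.15), was among those not called. Fatty acid synthase Fasn was at -1.08 ± 0.16 (adjusted p = 9e-06) between the WT muscles and its interaction was 1.28 ± 0.23 (adjusted p = 0.00019). The desaturase Scd2 was at -0.73 ± 0.11 (adjusted p = 1.3e-05) between the WT muscles, -0.57 ± 0.11 (adjusted p = 0.00038) in glycolytic and 0.63 ± 0.11 (adjusted p = 0.0001) in oxidative ECKO. Malic enzyme Me1 fell in oxidative ECKO, -1.22 ± 0.12 (adjusted p = 1.7e-08).

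Of 11 LXR receptors and further LXR targets, 8 were tested. Nr1h3, Apoe, Lpcat3 and Rxra were lower in oxidative than in glycolytic WT and Arl4c was higher. The call on Rxra was lost in the fit without oxidative ECKO libraries 1, 2 and 3 (adjusted p = 0.052). These were 62.5% of the 8, beside 32.4% of all tested genes. In oxidative ECKO Nr1h3, the gene of LXRα, rose from 9.09 CPM ± 0.948 to 15.8 CPM ± 2.11, 0.78 ± 0.12 (adjusted p = 1.5e-05), the phospholipid acyltransferase Lpcat3 rose by 0.40 ± 0.062 (adjusted p = 1.1e-05) and the partner receptor Rxra by 0.32 ± 0.069 (adjusted p = 0.0006). The other 5 did not pass with all libraries, so 37.5% of the 8 were called, beside 32% of all tested genes. Apoe, which carries lipid in lipoproteins, was called higher with oxidative ECKO libraries 4 and 5 alone, 0.35 (adjusted p = 3.4e-06), and lower with libraries 1, 2 and 3 alone, -0.27 (adjusted p = 0.0032), a pattern picked out after its values were seen. In glycolytic ECKO Nr1h3 was the 1 gene called, 0.39 ± 0.12 (adjusted p = 0.015), or 12.5% of the 8, beside 29% of all tested genes. Of 15 further genes of lipoprotein uptake and sterol transport, 4 were higher and 2 lower in oxidative WT, 2 rose and 3 fell in oxidative ECKO, and 6 fell in glycolytic ECKO. At 40.0%, 33.3% and 40.0% of the list, these stood beside 32.4%, 32% and 29% of all tested genes. Soat2, an esterification enzyme like Soat1, had 135 counts over the glycolytic WT libraries, 901 in oxidative WT, 18 in glycolytic ECKO and 14 in oxidative ECKO. Its group means were 1.68, 13.6, 0.374 and 0.194 CPM, and the fall in oxidative ECKO was -6.07 ± 0.34 (adjusted p = 8.8e-14). The lipoprotein receptor Vldlr fell there from 12.6 CPM ± 2.64 to 2.38 CPM ± 0.611, -2.40 ± 0.20 (adjusted p = 5e-10). Lrp8, a related receptor, fell in glycolytic ECKO, from 2.41 CPM ± 0.816 to 0.4 CPM ± 0.25, -2.63 ± 0.43 (adjusted p = 2.8e-05). Scarb1, which takes up cholesteryl ester, was lower in oxidative WT, -0.67 ± 0.062 (adjusted p = 2.8e-09). Of 5 oxysterol enzymes only Ch25h was called between the ECKO muscles, lower in the oxidative one, -0.86 ± 0.12 (adjusted p = 8.8e-06). That is 20.0% of the list, beside 18.4% of all tested genes. Ch25h was also lower in oxidative WT (-0.44) and fell in oxidative ECKO (-0.49). The fall was not called with libraries 4 and 5 alone (-0.18, adjusted p = 0.3). Of 10 genes of the isoprenoid branch Nus1 fell in both muscles. It was at -0.46 ± 0.068 (adjusted p = 6.2e-06) in oxidative and -0.54 ± 0.069 (adjusted p = 1.1e-06) in glycolytic ECKO. Icmt and Dhdds rose in oxidative ECKO, Dhdds not with libraries 4 and 5 alone (adjusted p = 0.2), and Rce1 in glycolytic ECKO. In all 30.0% and 20.0% of the list were called, beside 32% and 29% of all tested genes.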

How the data were processed

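The authors deposited, for each of 20 libraries (poly(A) selected, stranded, single-end reads of 100 bases), a table of estimated counts, effective lengths and TPM per transcript. Per the submitters' processing notes the tools were kallisto and DESeq2, and the build is given as GRCh38.p13, a human assembly, although the identifiers are of mouse transcripts. Versions and the use of strand are not given in the sources used here, so members with an overlapping gene or a near-identical copy are uncertain.

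Estimated counts were summed per gene with GENCODE M21 (GRCm38), which held 128643 of 129439 transcripts. At most 0.221% of a library's counts had no match, and sums were rounded to whole numbers. The deposited TPM values were summed per gene and used only to compare genes. Tests were edgeR 4.0.16 quasi-likelihood tests (R 4.3.3) with TMM factors, filterByExpr and 20 libraries in 1 fit, and Benjamini-Hochberg adjustment over 13971 genes. SE is the size of the log2 fold change over the square root of F. The fit was tested on simulated counts.

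The fit was repeated with RLE factors, with every gene kept, with DESeq2 1.42.0 and limma-voom (limma 3.58.1) as tools, with an effective length offset, with the groups compared alone, with the replicate number as a block, with part of the oxidative ECKO libraries, and without each library in turn. Members, lists and alternatives were chosen with earlier results of these data known. All members could be named. Values of every library are printed for the LXR targets, Srebf1, Srebf2, Insig1, Hmgcs1, Sqle and, per comparison and role, the called member of largest change, and of each further list up to 3 genes of smallest adjusted p in a comparison. Replicates differed beyond sampling noise. Counts carry no molecular identifiers.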

Additional observations from a re-analysis of the deposited data

Results flagged for a closer look

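In 7 of 124 pairs of a member and a group, 1 library stood far from the other 4 of its group, its gap to the nearest being more than 0.71 of the group's range. Chance gives about 1 in 20. Library 5 of oxidative WT had 19.3 CPM of Fdft1, against 24.9 to 27.1 in the others. In glycolytic WT, library 5 had 56.4 CPM of Msmo1 (others 47.6 to 50.0) and library 2 had 76.1 CPM of Stard4 (others 68.8 to 70.8). In glycolytic ECKO, library 5 had 63.0 CPM of Ebp (others 55.5 to 57.2), 8.68 CPM of Dhcr7 (others 13.1 to 14.3) and 61.9 CPM of Srebf1 (others 58.6 to 59.5). Library 2 of oxidative ECKO had 93.0 CPM of Abca1, against 78.6 to 82.0.

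For 16 members the change from WT to ECKO differed between the muscles in the edgeR interaction test, always more positive in oxidative muscle. The log2 values among mevalonate enzymes were 0.52 for Acat2 (adjusted p = 0.023), 0.36 for Hmgcs1 (adjusted p = 0.0037), 0.60 for Mvk (adjusted p = 0.0015), 1.04 for Idi1 (adjusted p = 7.8e-06) and 0.77 for Fdps (adjusted p = 3e-05). Among squalene and sterol enzymes they were 0.68 for Fdft1 (adjusted p = 0.00012), 0.77 for Sqle (adjusted p = 0.0028), 0.72 for Lss (adjusted p = 0.025), 0.94 for Cyp51 (adjusted p = 0.00019), 0.35 for Msmo1 (adjusted p = 0.011), 0.47 for Nsdhl (adjusted p = 0.021) and 0.71 for Hsd17b7 (adjusted p = 0.012). The calls on Acat2, Sqle, Msmo1, Nsdhl and Hsd17b7 were lost with oxidative ECKO libraries 4 and 5 alone. That on Acat2 was also lost without glycolytic WT library 1 or glycolytic ECKO library 1 or 5, that on Nsdhl without glycolytic ECKO library 4, and that on Lss without glycolytic WT library 1 or 2, oxidative WT library 2 or 4 or glycolytic ECKO library 1, with limma-voom or with the effective length offset. Srebf1 was at 0.34 (adjusted p = 0.00057), Scap at 0.35 (adjusted p = 0.0055), Abca1 at 0.63 (adjusted p = 8.5e-06) and Mylip at 0.52 (adjusted p = 3.5e-05).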

How the results depend on the processing

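The 5 comparisons gave 80 calls on members. Of these 60 held under all alternatives run and 20 were lost under at least 1, and no call reversed. The number lost was 0 with RLE factors or DESeq2, 1 with limma-voom, 4 with the groups compared alone, 6 without the low-count filter, 7 with the effective length offset, 9 with oxidative ECKO libraries 4 and 5 alone and 4 with libraries 1, 2 and 3 alone. Between the ECKO muscles the number of members lower was 2, and 1 without the low-count filter, with the effective length offset, with only the groups compared, or with either part of the oxidative ECKO libraries. Leaving out 1 library gave 0 to 3 lower and 2 to 5 higher there. In the interaction the number more negative was 1 with libraries 4 and 5 alone and 0 to 1 with 1 library left out. The cause was not tested. The interaction was not run with only the groups compared, since it needs all 4.

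With the replicate number as a block, 1 call was lost (Npc2 in glycolytic ECKO, so that 17 members fell in place of 18) and 0 were gained. Deviations of libraries with the same number correlated at -0.066 to 0.1 over 30 pairs, and 9 of 30 matched their own number best, so the numbers were not taken to pair libraries. Low counts limit Lss, Hsd17b7 and Tm7sf2 most.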
